A study of Mus musculus with 36 samples.

Results

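Lipid droplet coat genes, 9 in all, whose proteins coat, enlarge or help to build lipid droplets, were followed across 12 RNA-seq libraries of mouse 3T3-L1 cells. They are the perilipins Plin1, Plin2, Plin3 and Plin4, the CIDE family members Cidec and Cidea, the seipin gene Bscl2, and the fat storage-inducing transmembrane genes Fitm1 and Fitm2. They were picked by gene name from the 52505 Ensembl genes of the expression table, and each of the 9 had 1 row. 3T3-L1 is an established line of mouse preadipocytes that turns into fat-storing cells under a hormone mixture. The mixture used here, called MDI, held dexamethasone, isobutyl-methylxanthine, insulin and indometacin.

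The libraries formed 4 groups of 3, wild-type (WT) cells at day 0, zfp217-/- cells at day 0, WT cells at day 2 and zfp217-/- cells at day 2 of MDI. All 12 libraries carry the same label for culture and MDI treatment. Zfp217 encodes a zinc finger protein that works with transcriptional repressor complexes, and the study asked how its loss affects fat cell differentiation. The zfp217-/- libraries are called KO-labelled here. Zfp217 itself was not lower in them, with 22.0 ± 0.279 FPKM in WT and 26.0 ± 0.883 in KO-labelled libraries at day 0, and 15.1 ± 0.369 and 22.6 ± 0.858 at day 2 (SD, n = 3 each). In the limma fit described below it was higher in KO-labelled libraries by 0.23 in log2(FPKM + 1) at day 0 (adjusted p = 7.58e-05) and by 0.55 at day 2 (adjusted p = 2.41e-08). The message level therefore gives no check of these labels, and every direction below is between labelled groups. The labels do not say how the deletion was made, whether the KO line is 1 clone, or whether replicates were separate cultures, so p-values measure the spread between these libraries only.

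A lipid droplet is a core of triglyceride and sterol ester under a single layer of phospholipid. Droplets are born in the membrane of the endoplasmic reticulum, where seipin and the FIT proteins act, and perilipins then settle on their surface. As a preadipocyte becomes a fat cell, the perilipins found in most cells, Plin2 and Plin3, give way to Plin1, which holds back lipases at rest, while Cidec lets droplets pass lipid to one another and grow.

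FPKM, the unit of the table, is fragments scaled by gene length and by the mapped fragments of the library, so levels of different genes can be set side by side per length. The reads behind each value could be recovered from the steps of the FPKM values, and the libraries held 18073258 to 23114994 reads. Libraries of 1 group correlated at 0.992 to 0.996 over genes and libraries of different groups at 0.786 to 0.92. WT day 0 replicate 3 stood apart with 23 genes at least 4-fold from both other replicates, against 1 to 5 in each of the other 11 libraries. Its level of mt-Rnr1, a ribosomal RNA of mitochondria, was 264 FPKM. That RNA stood at 7.01 and 5.87 in the other WT day 0 libraries, at 379 to 396 in KO-labelled day 0 libraries and at 13.5 to 19.9 at day 2. The defining fat cell markers Adipoq, Fabp4, Lep, Cebpa and Pparg summed to 14.4 to 15.6 FPKM in WT and 7.6 to 12.1 in KO-labelled libraries at day 0, and to 3313 to 3447 and 74.1 to 77.6 at day 2, with Lep at 0 in all 12. At day 0 Pparg was lower in KO-labelled than in WT libraries, at 2.85 ± 0.596 against 10.2 ± 0.466 FPKM. Cebpa, at 4.61 ± 0.444 against 3.63 ± 0.183, and Fabp4, at 1.96 ± 1.39 against 1.18 ± 0.132, were not lower. Adipoq was near 0 in both genotypes at day 0. The 5 fibroblast and preadipocyte markers, Pdgfra, Pdgfrb, Dlk1, Thy1 and Col1a1, were all present and summed to 4538 to 4717 in WT and 11218 to 11759 in KO-labelled libraries at day 0, and to 299 to 306 and 2788 to 2859 at day 2. Of the 5 macrophage markers only Cd68 reached 1 FPKM. The endothelial, skeletal muscle, liver and epithelial lists summed to at most 1.1 FPKM in every library, and the muscle genes Myod1 and Myog were at 0.

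Promoter sequence is shown for the members that changed most in WT cells, Plin1 and Cidec, for Plin2, which had the highest perilipin FPKM in all 4 groups, and for Plin3, the member that moved the opposite way. The windows span 250 bases before to 50 after each RefSeq start site (build GRCm38.p6), and 11 windows matched the 8 members searched. Cidea was not searched. All stretches are on the minus strand, read 5′ to 3′ along the gene, with motif matches in capitals, and only bases outside the annotated gene or short stretches around a match are printed.
Plin1, chr7:79732905-79733026: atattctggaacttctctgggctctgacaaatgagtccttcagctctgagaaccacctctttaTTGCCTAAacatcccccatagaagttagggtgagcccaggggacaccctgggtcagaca
Plin1, chr7:79732816-79732845: tctgagaggcaTTGCCCAAgattccctgga
Cidec, chr6:113434944-113434973: ggagggctctaTTGCTCAAgggcccatggg
Plin2, chr4:86670046-86670075: cagctgggctatCACGTGgctcggaggctt
Plin3, chr17:56290512-56290761: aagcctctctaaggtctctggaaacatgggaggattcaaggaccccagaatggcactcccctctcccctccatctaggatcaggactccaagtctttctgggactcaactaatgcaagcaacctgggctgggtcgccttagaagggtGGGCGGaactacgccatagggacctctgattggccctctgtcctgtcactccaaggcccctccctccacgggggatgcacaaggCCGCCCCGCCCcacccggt

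The capitals in the Plin1 and Cidec stretches are matches to TTGCNNAA, a site of the C/EBP family of fat cell regulators, found on either strand in 10.8% of all 32851 windows. In Plin1 they lie at -187 to -180 and at -58 to -51 from the start site, and in Cidec at -198 to -191. The Cidec match belongs to a RefSeq start site at base 113434764, inside the annotated gene, and the window at the gene's own 5′ end held no match. The Plin1 start site, base 79732776, also lies inside the annotated gene, as does the Plin1 match at -58 to -51. The same holds for the Plin2 start site, base 86670059, and the Plin2 match. The Plin2 capitals are an E-box, CACGTG, at -4 to 2, held by 7.15% of all windows. Those of Plin3 are 3 matches, 2 of them overlapping by a base, to the Sp1 site GGGCGG, which 35.7% of all windows hold and which also occurred in windows of Bscl2, Fitm2 and Plin2. None of the member windows searched held the direct repeat of AGGNCA with 1 base between the copies, the element of PPAR and RXR (0.381% of all windows), the glucocorticoid receptor element ACANNNTGT (6.85%), the cyclic AMP element TGACGTCA (1.79%), the sterol element TCACNCCAC (1.24%) or TATAAA (13.6%). A match is only a run of letters, and no binding was measured in these files.

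Plin1, the perilipin that guards the droplet of mature fat cells, lies on chr7:79721164-79732904, minus strand, as the gene ENSMUSG00000030546. At day 0 it was close to undetected, with 0.29, 0.169 and 0.13 FPKM in the 3 WT libraries and 0.268, 0.322 and 0.196 in the KO-labelled ones, or 4 to 10 reads a library. At day 2 the WT libraries held 526, 524 and 515 FPKM, and the KO-labelled libraries 7.45, 7.6 and 7.96. Both genotypes thus left their day 0 range, and the day 2 groups lay far apart. Against day 0, Plin1 rose by 8.77 in log2(FPKM + 1) in WT (SE 0.06, adjusted p = 4.3e-17, limma with Benjamini-Hochberg adjustment over 12961 genes). All adjusted p-values below were made in this way, except that fits with no filter on low values cover 30916 genes. In KO-labelled cells Plin1 rose by 2.78 (SE 0.06, adjusted p = 1.05e-12), from a mean of 0.262 to 7.67 FPKM or 29.2-fold. The KO-labelled level at day 2 was 68.1-fold below WT, with a log2 difference of -5.92 (SE 0.06, adjusted p = 1.33e-15). At day 0 the log2 difference was 0.08 (SE 0.06, adjusted p = 0.213). It was called only when WT day 0 replicate 1 was left out (0.13, adjusted p = 0.0312), and it was -0.04 after quantile normalization.

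Because the added 1 FPKM weighs on low values, the Plin1 rise in KO-labelled cells came to 4.44 with 0.1 FPKM added and to 4.81 on recovered reads. In WT the same settings gave 10.82 and 11.33. Among the 12961 genes tested, the WT rise of Plin1 ranked 4 from the top and the KO-labelled rise 80. In bulk RNA, fewer cells that express a gene and less of its RNA per cell cannot be told apart, here and in every comparison below. Fat cell markers moved with Plin1, their sum being 3313 to 3447 FPKM in WT and 74.1 to 77.6 in KO-labelled libraries at day 2, and their part in the result was not tested. Most of that sum was Fabp4, at 2975 ± 79.2 against 10.3 ± 0.367 FPKM, while Cebpa stood at 186 ± 5.93 against 31.1 ± 1.21, Pparg at 150.2 ± 4.0 against 33.7 ± 1.0 and Adipoq at 47.1 ± 0.834 against 0.472 ± 0.0583.

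**Figure D1:**
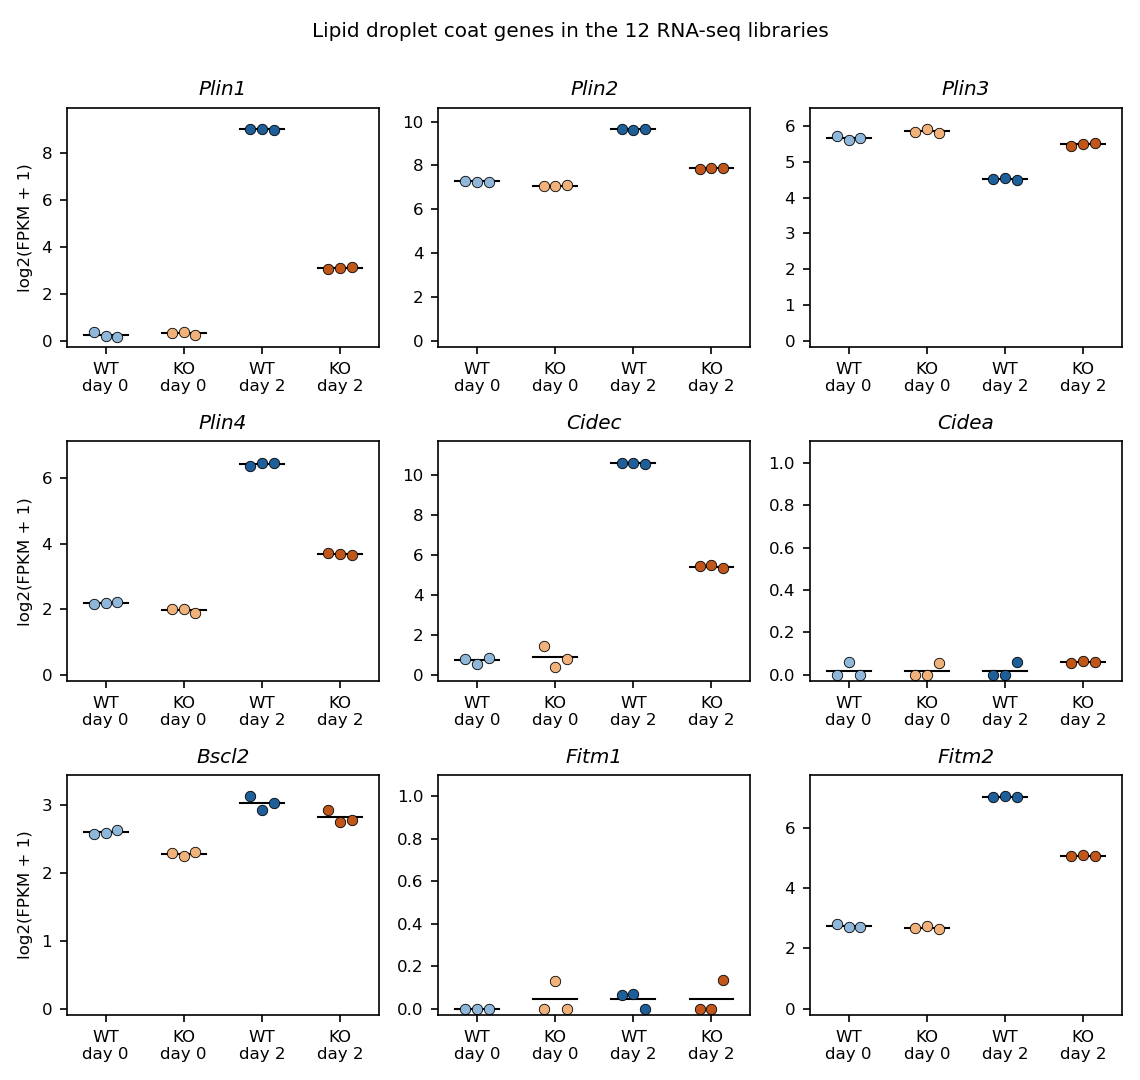
Level of each of the 9 genes as log2(FPKM + 1) in every library (points) with the group mean (bar), for WT and KO-labelled cells at day 0 and day 2, 3 libraries each. Plin1, Plin2, Plin4, Cidec and Fitm2 share the order WT day 2, KO-labelled day 2, then both day 0 groups, Plin3 has the opposite order of genotypes at day 2, and Cidea and Fitm1 stay near 0 (axis scaled to each gene, starting near 0).

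Plin2, the perilipin that coats droplets in most cell types, lies on chr4:86626910-86670217 (ENSMUSG00000028494). It was already plentiful at day 0, at 156, 153 and 153 FPKM in WT and 131, 134 and 139 in KO-labelled libraries. Day 2 values were 814, 788 and 808 in WT and 231, 235 and 235 in KO-labelled libraries. No 2 groups overlapped, and the order from the top was WT day 2, KO-labelled day 2, WT day 0 and KO-labelled day 0. Plin2 rose 5.2-fold in WT (log2 change 2.37, SE 0.02, adjusted p = 8.94e-16) and 1.74-fold in KO-labelled cells (0.79, SE 0.02, adjusted p = 2.76e-11). KO-labelled cells held 29.1% of the WT level at day 2 (log2 difference -1.77, SE 0.02, adjusted p = 1.38e-14). At day 0 the difference was small, -0.19 (SE 0.02, adjusted p = 7.62e-06), and it was no longer called after quantile normalization (-0.04, adjusted p = 0.218). The length that the FPKM steps imply for Plin2, 861 bases, is the shortest of the 9 and shorter than the coding region of this gene, so its level against other genes carries that uncertainty, which its changes between groups do not.

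Plin3, a perilipin that moves between the cytosol and young droplets, moved against the other coat genes. It lies on chr17:56278962-56290511 (ENSMUSG00000024197). WT libraries held 51.7, 47.5 and 49.6 FPKM at day 0 and 21.9, 22.2 and 21.5 at day 2. KO-labelled libraries held 56.3, 59.4 and 54.7 at day 0 and 42.0, 43.7 and 45.3 at day 2. Again no 2 groups overlapped, but here KO-labelled day 0 was highest and WT day 2 lowest. In WT Plin3 fell to 44.0% of its day 0 level (log2 change -1.15, SE 0.04, adjusted p = 6.33e-11), and in KO-labelled cells to 76.9% (-0.37, SE 0.04, adjusted p = 4.5e-06). KO-labelled cells therefore had 2.0-fold more Plin3 message than WT at day 2 (log2 difference 0.97, SE 0.04, adjusted p = 3.36e-10), and 1.15-fold more at day 0 (0.19, SE 0.04, adjusted p = 0.000773).

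Plin4, a perilipin with a long repeat region that coats small new droplets in fat cells, lies near Plin3 on chr17:56100587-56109948 (ENSMUSG00000002831). Its day 0 values were 3.44, 3.55 and 3.63 FPKM in WT and 3.03, 3.06 and 2.72 in KO-labelled libraries. At day 2 they were 81.4, 87.8 and 86.3 in WT and 12.1, 11.9 and 11.5 in KO-labelled libraries. The 4 groups stood in the order seen for Plin2, with no overlap. Plin4 rose 24.0-fold in WT (log2 change 4.25, SE 0.05, adjusted p = 1.91e-15) and 4.04-fold in KO-labelled cells (1.71, SE 0.05, adjusted p = 1.22e-11). The day 2 level in KO-labelled cells was 13.9% of WT (log2 difference -2.74, SE 0.05, adjusted p = 1.02e-13), and the day 0 difference was -0.21 (SE 0.05, adjusted p = 0.00117). The annotated gene shares a few bases with the end of Hdgfl2.

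Plin5, the perilipin of muscle and other fat-burning tissues, is not among the 9 genes but completes the family. It held 0.0468 to 0.0736 FPKM in WT and 0.119 to 0.234 in KO-labelled libraries at day 0, and 0.294 to 0.517 and 0.36 to 0.486 at day 2, on 2 to 21 reads a library. With the filter on low values lifted it rose in both genotypes, by 0.4 in WT (SE 0.06, adjusted p = 0.000281) and 0.28 in KO-labelled cells (SE 0.06, adjusted p = 0.00414), while its day 2 levels overlapped between genotypes (log2 difference 0.01, SE 0.06, adjusted p = 1.0).

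Summed over Plin1 to Plin4, the perilipin level was 207.7 ± 3.76 FPKM in WT and 194.8 ± 3.4 in KO-labelled cells at day 0, then 1432 ± 11.0 in WT and 297.2 ± 3.66 in KO-labelled cells at day 2 (SD, n = 3 each). Its make-up shifted as well. Plin1 made up 0.0941% ± 0.038 of the sum in WT at day 0 and 36.4% ± 0.43 at day 2, and Plin3 23.9% ± 0.59 and 1.53% ± 0.03. In KO-labelled cells Plin1 went from 0.135% ± 0.032 to 2.58% ± 0.061, and Plin3 from 29.2% ± 1.2 to 14.7% ± 0.38. Plin2 had the highest share per length in all 4 groups, at 74.3% ± 0.57 and 56.1% ± 0.59 in WT on the 2 days and 69.2% ± 1.3 and 78.7% ± 0.29 in KO-labelled cells. Plin4 made up 1.71% ± 0.071 and 5.95% ± 0.28 in WT, and 1.51% ± 0.11 and 3.99% ± 0.15 in KO-labelled cells. By these shares Plin2 and Plin3 were the largest at day 2 in KO-labelled cells, and Plin2 and Plin1 in WT. These shares are per length, and shares of reads differ where gene lengths do, for example 34.9% in place of 56.1% for Plin2 in WT at day 2. By reads Plin1 led in WT at day 2, with 38.0%, and Plin3 led in KO-labelled cells at day 0, with 47.9% against 45.4% for Plin2, so which perilipin leads in these groups depends on the implied lengths.

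**Figure D2:**
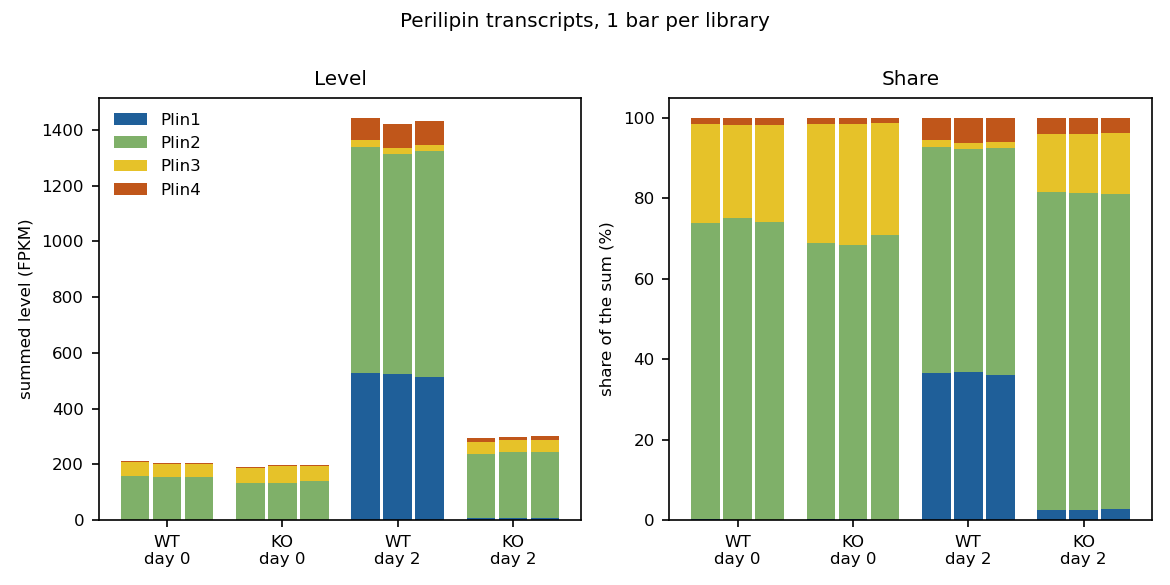
Stacked bars of Plin1, Plin2, Plin3 and Plin4, 1 bar per library, as summed FPKM (left) and as percent of the sum (right). The WT day 2 bars reach 1422 to 1444 FPKM with Plin1 at 36.0% to 36.9%, and the KO-labelled day 2 bars reach 293.1 to 300.2 FPKM and are mostly Plin2.

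Cidec, also called Fsp27, gathers at contacts between droplets and lets lipid flow from the smaller to the larger one. It lies on chr6:113424634-113435760 (ENSMUSG00000030278), where a long noncoding gene, Gm52871, overlaps it. WT libraries held 0.731, 0.468 and 0.78 FPKM at day 0 and 1533, 1544 and 1487 at day 2. KO-labelled libraries held 1.69, 0.325 and 0.701 at day 0 and 42.4, 43.0 and 39.0 at day 2. By day 2 it was the most abundant of the 9 genes in WT cells, ranking 34 from the top of the 12961 genes, while in KO-labelled cells it ranked 3007, below Plin2 and, at 41.5 ± 2.17 FPKM, overlapping Plin3 at 43.7 ± 1.65.

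The WT rise of Cidec was 9.85 in log2(FPKM + 1) (SE 0.19, adjusted p = 2.84e-13), the second largest of all genes tested, and the KO-labelled rise was 4.54 (SE 0.19, adjusted p = 7.66e-10), or 45.8-fold, at rank 16. KO-labelled cells held 2.73% of the WT level at day 2, 36.7-fold less (log2 difference -5.16, SE 0.19, adjusted p = 1.2e-10). At day 0 the genotypes overlapped (0.14, SE 0.19, adjusted p = 0.505). That day 0 value depended on single libraries. KO-labelled day 0 replicate 1 had 35 Cidec reads where its fellow replicates had 8 and 17, and without it the difference was -0.14. In that library, replicate 1, the fat cell marker Fabp4 stood at 3.56 FPKM against at most 1.32 in the other day 0 libraries, and its part in the Cidec value was not tested. Without KO-labelled day 0 replicate 2, the day 0 difference was 0.37 and called (adjusted p = 0.0447). Genes of chromosome 6 as a whole had a median KO-labelled against WT difference of -0.31 relative to all genes at day 2 (597 genes), and of -0.34 at day 0. The same medians at day 2 were -0.22 for chromosome 2, which carries Fitm2, -0.12 for chromosome 4 (Plin2), -0.06 for chromosome 17 (Plin3 and Plin4), 0.07 for chromosome 7 (Plin1) and 0.01 for chromosome 19 (Bscl2). Their part in the member values was not tested.

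Cidea, the CIDE protein of brown fat cells, was not detectable at this depth. Its row, ENSMUSG00000024526 (chr18:67343564-67367794), held 0 or 1 read in every library and 6 reads in all, and 3 reads correspond to 0.111 to 0.143 FPKM. The brown fat marker Ucp1 was at 0 in all 12 libraries, and Elovl3 brought that list to 4.49 to 5.01 FPKM in WT at day 2 and to at most 0.0741 elsewhere. Cideb, the CIDE protein of liver and gut, stayed between 0.135 and 0.647 FPKM on 3 to 14 reads, and its groups overlapped.

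Within a library the ratio of Cidec to Plin1 in FPKM was 2.91 ± 0.0289 in WT at day 2 and 5.42 ± 0.449 in KO-labelled cells (SD, n = 3 each), with no overlap. The ratio of Plin2 to Plin1 was 1.54 ± 0.0333 in WT and 30.5 ± 0.824 in KO-labelled cells at day 2. Such ratios do not depend on how libraries were scaled.

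Bscl2 encodes seipin, which forms rings in the endoplasmic reticulum where droplets bud, and whose loss causes a near absence of fat tissue in people and mice. It lies on chr19:8837467-8848683, plus strand (ENSMUSG00000071657), and overlaps Gng3. Whether reads were counted by strand is not given in the sources used here. WT libraries held 4.9, 5.0 and 5.16 FPKM at day 0 and 7.69, 6.55 and 7.16 at day 2. KO-labelled libraries held 3.86, 3.75 and 3.91 at day 0 and 6.59, 5.68 and 5.83 at day 2. Within each genotype the days did not overlap, but the genotypes did overlap at day 2. Bscl2 rose 1.42-fold in WT (log2 change 0.43, SE 0.06, adjusted p = 5.34e-05) and 1.57-fold in KO-labelled cells (0.54, SE 0.06, adjusted p = 1.13e-05). KO-labelled cells were lower at day 0 (-0.31, SE 0.06, adjusted p = 0.000663) and at day 2 (-0.21, SE 0.06, adjusted p = 0.00962).

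Fitm2 encodes a diacylglycerol and triglyceride binding protein of the endoplasmic reticulum needed for droplets to form. It lies on chr2:163468703-163472629 (ENSMUSG00000048486). Day 0 values were 5.98, 5.53 and 5.54 FPKM in WT and 5.44, 5.64 and 5.3 in KO-labelled libraries. Day 2 values were 129, 132 and 130.4 in WT and 32.4, 33.6 and 32.5 in KO-labelled libraries. The genotypes overlapped at day 0 and lay well apart at day 2. Fitm2 rose 22.9-fold in WT (log2 change 4.3, SE 0.03, adjusted p = 2.24e-16) and 6.02-fold in KO-labelled cells (2.39, SE 0.03, adjusted p = 6.05e-14), and at day 2 the KO-labelled level was 25.2% of WT (-1.96, SE 0.03, adjusted p = 1.71e-13). At day 0 the log2 difference was -0.05 (SE 0.03, adjusted p = 0.212), and its sign was positive under TPM scaling, median-of-ratios scaling and quantile normalization. Within a library Fitm2 went from 1.13 ± 0.0775 times the Bscl2 level to 18.4 ± 1.7 times in WT, and from 1.42 ± 0.0754 to 5.47 ± 0.507 times in KO-labelled cells.

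Fitm1, the FIT gene of skeletal and heart muscle, had 0 to 2 reads in each library and 6 in all (chr14:55575674-55576952, ENSMUSG00000022215), under the 0.134 to 0.171 FPKM that 3 reads represent. All 3 WT day 0 libraries were at 0. With no filter on low values, limma called neither Fitm1 nor Cidea in any comparison (adjusted p from 0.257 to 1.0).

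Of the 9 genes, 7 averaged 1 FPKM or more across all libraries and were tested, and Plin1 and Cidec passed that filter only through day 2, so the counts below describe the members and support nothing further. In WT cells from day 0 to day 2, 6 rose and 1 fell, where 34.2% of all genes tested were called higher and 46.5% lower, and 5 rose at least 2-fold, against 9.28% of all genes. The median log2 change was 4.25 over the 7 genes and -0.11 over all genes. In KO-labelled cells 6 also rose and 1 fell, beside 33.9% and 38.8% of all genes, and 4 rose at least 2-fold, against 5.46%. The median there was 1.71, and -0.03 over all genes.

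Between genotypes at day 2, 1 member was higher and 6 were lower in KO-labelled cells, beside 40.8% and 40.6% of all genes. The drop was at least 2-fold for 5, Plin1, Plin2, Plin4, Cidec and Fitm2, against 11.5% of all genes. The median log2 difference was -1.96, and 0.0 over all genes. At day 0 only Plin3 was called higher and Plin2, Plin4 and Bscl2 lower, where 38.3% of all genes were called higher and 44.2% lower, so being called at day 0 was common to most genes. None of those 4 day 0 differences reached 2-fold, and the median was -0.05 beside -0.06 for all genes. The RNA mt-Rnr1 also differed between genotypes at day 0, apart from WT replicate 3, and its part in these differences was not tested. Without that replicate the same 4 genes were called, with -0.2 for Plin2, 0.19 for Plin3, -0.19 for Plin4 and -0.3 for Bscl2. That fit sets WT libraries with 7.01 and 5.87 FPKM of mt-Rnr1 against KO-labelled ones with 379 to 396. It is therefore no check on the part of that RNA. Comparisons that share a group of libraries are not independent of each other.

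**Figure D3:**
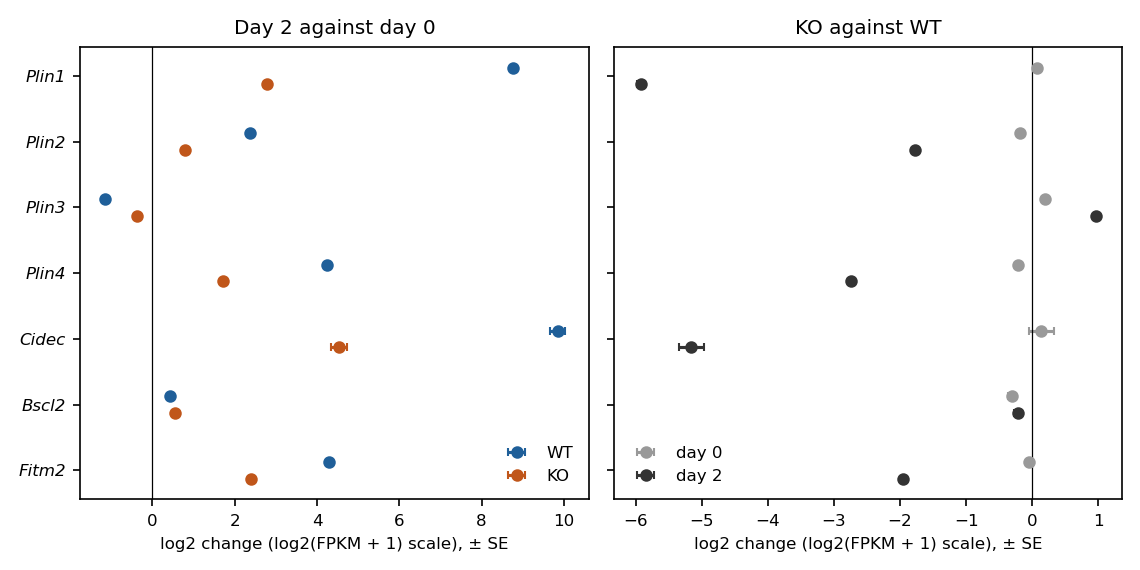
Log2 change with its SE for the 7 tested genes, left for day 2 against day 0 in WT (blue) and KO-labelled cells (orange), right for KO-labelled against WT cells at day 0 (grey) and day 2 (black). Plin1 and Cidec show the widest gaps between genotypes, -5.92 and -5.16 at day 2, and Bscl2 the narrowest, -0.21.

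Whether the response to MDI differed between genotypes was tested as an interaction, the KO-labelled change minus the WT change. It was -5.99 for Plin1 (SE 0.08, adjusted p = 7.4e-14), -5.3 for Cidec (SE 0.27, adjusted p = 4.52e-09) and -2.54 for Plin4 (SE 0.06, adjusted p = 1.03e-11). Fitm2 followed with -1.91 (SE 0.05, adjusted p = 1.13e-11) and Plin2 with -1.58 (SE 0.03, adjusted p = 1.98e-12), so these 5 genes rose less in KO-labelled cells. Plin3 had a positive term, 0.77 (SE 0.06, adjusted p = 1.22e-07), as it fell less there. Bscl2 did not pass, with 0.11 (SE 0.09, adjusted p = 0.31). That makes 1 higher and 5 lower of 7, beside 40.8% and 33.0% of all genes, with a median of -1.91 and of 0.06 over all genes. Leaving out WT day 0 replicate 3, the library that stood apart, gave -5.95 for Plin1 and -5.36 for Cidec.

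The wider set of 39 other droplet genes, taken from textbook knowledge, had 33 members above the filter. From day 0 to day 2, 19 rose and 10 fell in WT (median 0.24), beside 34.2% and 46.5% of all genes. In KO-labelled cells 18 rose and 5 fell (median 0.21), beside 33.9% and 38.8%. Between genotypes 12 were higher and 17 lower in KO-labelled cells at day 0 (median -0.26), beside 38.3% and 44.2% of all genes, and 8 higher and 22 lower at day 2 (median -0.3), beside 40.8% and 40.6%. Their interaction was positive for 11 and negative for 13 (median 0.05), beside 40.8% and 33.0%. At least 2-fold rises numbered 9 in WT, where 9.28% of all genes rose that far, and 10 in KO-labelled cells, where 5.46% did. At day 2, 10 were at least 2-fold lower in KO-labelled cells, against 11.5% of all genes. Another 4 were at least 2-fold higher then, for which the share over all genes was not computed. The set was thus mixed, and its lowest day 2 values in KO-labelled relative to WT cells were those of G0s2, Dgat2 and Lipe.

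Among the lipolysis genes, all 5 tested were lower in KO-labelled cells at day 2, where 40.6% of all genes were. G0s2, an inhibitor of the lipase Pnpla2, showed the largest difference, with 179, 178 and 179 FPKM in WT against 0.154, 0.121 and 0.0554 in KO-labelled libraries, which is 1 to 3 reads (log2 difference -7.34, SE 0.06, adjusted p = 4.23e-16). It passed the filter only through WT day 2, where it had risen by 7.44 (SE 0.06, adjusted p = 1.5e-16). Lipe, hormone-sensitive lipase, was already higher in KO-labelled cells at day 0 (9.5 ± 0.529 against 4.09 ± 0.072 FPKM, log2 difference 1.04) yet lower at day 2 (29.7 ± 0.943 against 340.2 ± 7.04, -3.48, adjusted p = 4.24e-15). At day 0, 3 of the 5 tested lipolysis genes, Lipe among them, were called higher in KO-labelled cells and 1 lower, beside 38.3% and 44.2% of all genes. Pnpla2, the lipase that starts triglyceride breakdown, rose by 6.11 in WT and by 4.15 in KO-labelled cells, to 918 ± 9.68 and 419 ± 2.0 FPKM. Its KO-labelled rise was the largest of the 33.

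For droplet formation at the endoplasmic reticulum, 1 gene was higher and 8 were lower of 11 at day 2, beside 40.8% and 40.6% of all genes. Dgat2, which makes the last step of triglyceride synthesis, rose by 6.59 in WT and 2.65 in KO-labelled cells and then stood at 814 ± 16.2 and 33.0 ± 1.89 FPKM (log2 difference -4.58, adjusted p = 1.94e-14). Acsl3, which activates fatty acids on young droplets, fell by 1.85 in WT, and it was already lower in KO-labelled cells at day 0, 19.0 ± 0.134 against 66.5 ± 1.76 FPKM. Pcyt1a, the rate-limiting enzyme of phosphatidylcholine synthesis, fell by 0.9 on the log2 scale in WT and by 0.44 in KO-labelled cells. Snx14, a tether between the endoplasmic reticulum and droplets, was higher in KO-labelled cells at day 0 by 0.85 (adjusted p = 4.42e-10). The late endosome gene Rab7 fell in both genotypes, by 0.68 in WT (adjusted p = 3.17e-09) and by 0.53 in KO-labelled cells (adjusted p = 6.12e-08).

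Of the other droplet proteins, the sterol synthesis enzymes Nsdhl, Lss and Hsd17b7, which are found on droplets, were lower in KO-labelled cells at day 0, Nsdhl at 9.83 ± 0.627 against 102 ± 0.957 FPKM (log2 difference -3.25), Lss at 9.7 ± 0.563 against 70.0 ± 0.55 (-2.73) and Hsd17b7 at 12.8 ± 0.839 against 74.2 ± 2.59 (-2.45). By day 2 Hsd17b7 had risen by 2.9 in KO-labelled cells and was above WT, 101 ± 1.97 against 41.9 ± 1.17 FPKM (1.26, adjusted p = 6.08e-11). Nsdhl and Lss were still lower in KO-labelled cells at day 2. Nsdhl stood at 22.9 ± 1.13 against 88.5 ± 0.615 FPKM (-1.91) and Lss at 17.6 ± 1.22 against 110.1 ± 1.02 (-2.58). Hsd17b11, a dehydrogenase of the droplet surface, fell by 1.47 in WT and was then higher in KO-labelled cells, 22.4 ± 1.57 against 4.96 ± 0.61 FPKM (1.98). Mettl7a1, a membrane protein that reaches droplets, was higher in KO-labelled cells on both days, by 1.6 and 1.77. From day 0 to day 2 it fell by 0.85 in WT and by 0.68 in KO-labelled cells.

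**Figure D4:**
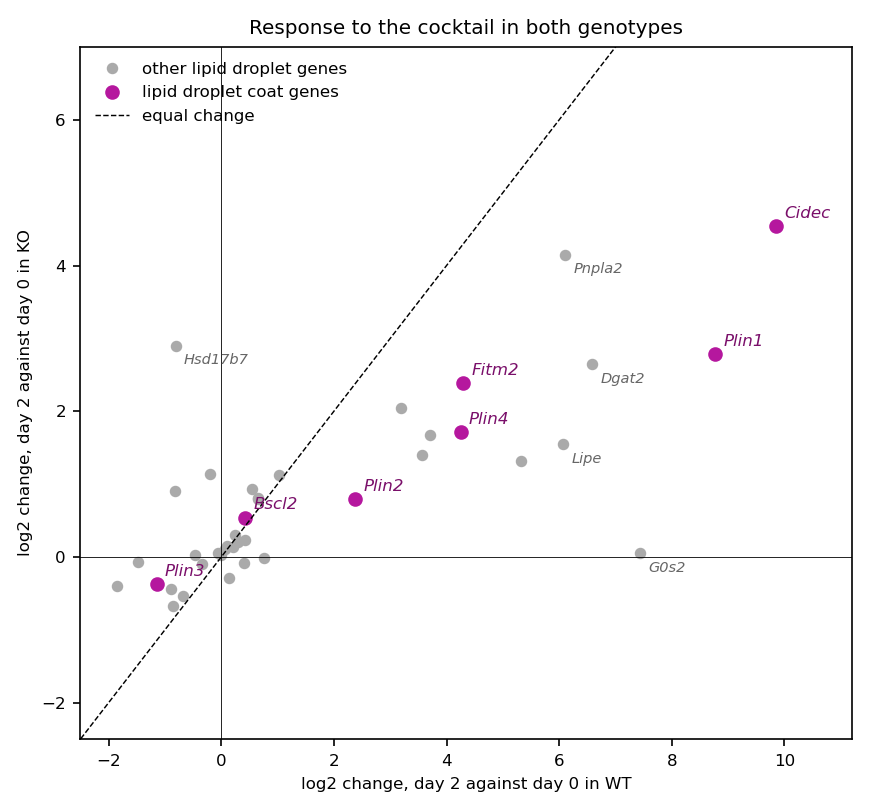
Log2 change from day 0 to day 2 in WT cells (horizontal axis) against that in KO-labelled cells (vertical axis) for the 7 tested coat genes (magenta) and the 33 other droplet genes tested (grey), with the line of equal change. Cidec (9.85 and 4.54) and Plin1 (8.77 and 2.78) lie farthest right, below the line, Bscl2 (0.43 and 0.54) lies near it, and G0s2 (7.44 and 0.05) lies on the horizontal zero line.

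For each tested member, the 3 genes with the closest profile over the 12 libraries were found by the distance between centred log2(FPKM + 1) values, given with Pearson's r as a description of libraries that share 4 groups. Plin1 was nearest to Fam83a (distance 1.95, r = 0.999), Cd36 (2.01, 0.988) and Dgat2 (2.75, 0.995). Cidec had no close match, its nearest being Acsl1 (3.75, 0.995), Fam83a (3.86, 0.991) and Fabp4 (3.94, 0.963). Plin4 was nearest to Olr1 (0.383, 0.999), Adipor2 (0.666, 0.996) and Trim29 (0.92, 0.991), and Fitm2 to Pank3 (0.67, 0.994), Adipor2 (0.789, 0.993) and Ang4 (0.796, 0.993). The smaller movements of Plin2 were matched closely by Tapt1 (0.241, 0.998), Tle3 (0.3, 0.998) and Klhl25 (0.317, 0.996). Plin3 ran with Lmf2 (0.199, 0.995), Slc25a37 (0.232, 0.993) and Arl2bp (0.253, 0.991). Bscl2 ran with Dap3 (0.26, 0.98), Cyb5b (0.267, 0.978) and Pcyt2 (0.275, 0.965). Arl2bp, for example, was at 148 FPKM in WT and 160.1 in KO-labelled cells at day 0, and at 66.2 and 119 at day 2, the order of groups seen for Plin3.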

How the data were processed

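The deposited table gives FPKM per Ensembl gene for 12 RNA-seq libraries, made by the authors. Per the submitters' processing notes, reads were handled with TopHat2 (2.0.12), Bowtie2 (2.2.3) and HTSeq (0.6.1) on mm10, while no source used here gives the annotation or strand setting. The 24 MeRIP samples were not analysed here. Symbols matched 51633 of 52505 genes, and coordinates and promoter windows are RefSeq's (GRCm38.p6). Reads were recovered from FPKM steps (99.99% of 16215 genes above 0 in all libraries had a whole implied length, within 0.05 bases), and intervals or floors of 3 reads cover counting error only. limma (3.58.1, R 4.3.3) was fitted to log2(FPKM + 1) for the 12961 genes averaging 1 FPKM or more, with 4 group means, 8 residual degrees of freedom and a variance trend. Tests were 2-sided, with Benjamini-Hochberg adjustment within each comparison and a threshold of 0.05. The fit was also run on simulated reads in which few genes were changed. Most genes were called here, so that run is no check on these calls. Fold changes named as such are ratios of mean FPKM, and log2 values understate changes of low genes. Named genes were all members, Zfp217, Plin5, Cideb, the 3 largest called changes in each direction of the other droplet genes per comparison of genotypes or days, and 3 nearest profiles per tested member (predicted genes left out). Mgll, Mettl7b and Pnpla3, and mt-Rnr1 and the fat cell markers beside Plin1 and Cidec, were named after their values were seen. Members and lists were chosen with earlier results of these data known. Alternatives covered pseudocount, filter, scaling, voom on recovered reads, variance trend, libraries fitted, replicate block and each library left out.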

Additional observations from a re-analysis of the deposited data

Results flagged for a closer look

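The response to MDI differed between genotypes, by the interaction test in limma, for 6 of the 7 genes tested. Of all genes tested, 40.8% were called higher and 33.0% lower for this interaction, so being called was common to most genes. The KO-labelled change minus the WT change was -5.99 for Plin1, -5.3 for Cidec, -2.54 for Plin4, -1.91 for Fitm2 and -1.58 for Plin2, which rose less in KO-labelled cells. It was 0.77 for Plin3, which fell less there.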

How the results depend on the processing

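Every count of called members or other droplet genes stayed within 1.5 times its value under the settings run (218 values). Of the recomputed member changes, 754 kept direction and call, and the others were all KO-labelled against WT at day 0. The sign turned for Plin1 (-0.04) and Cidec (-0.02) after quantile normalization, for Cidec without KO-labelled replicate 1 (-0.14), and for Fitm2 under TPM scaling (0.04), median-of-ratios scaling (0.02) and quantile normalization (0.02). Plin2 lost its call after quantile normalization (-0.04, adjusted p = 0.218). Calls were gained by Plin1 without WT replicate 1 (0.13, adjusted p = 0.0312) and by Cidec without KO-labelled replicate 2 (0.37, adjusted p = 0.0447). The cause was not tested. Quantile normalization moved the median KO-labelled against WT difference of all genes at day 0 by 0.07, and their median WT response by 0.12.

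As shares of reads not divided by length, an alternative added after seeing the data, Plin1 made up 38.0% in WT and 2.95% in KO-labelled cells at day 2. In the order WT day 0, KO-labelled day 0, WT day 2 and KO-labelled day 2, Plin2 made up 51.0%, 45.4%, 34.9% and 53.7%, Plin3 41.1%, 47.9%, 2.38% and 25.1%, and Plin4 7.83%, 6.6%, 24.7% and 18.2%. These shifts follow from the implied lengths. Adding Plin5 to the sum moved no share by more than its SD.

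No label says that a replicate number marks a shared culture. In deviations from their group means, same-numbered libraries correlated at -0.0545 to 0.0869, and 6 of the 12 were closest to their own number. With 3 libraries a group these values cannot decide whether the numbers pair libraries. With the replicate number as a block, 4 members were called between genotypes at day 0, 7 at day 2, 7 in each response and 6 for the interaction, the counts found without it. Over all 12961 genes that fit called 4941 higher and 5711 lower at day 0, and 5276 and 5239 at day 2. It called 4408 and 6003 in the WT response, 4381 and 5005 in the KO-labelled response, and 5242 and 4244 for the interaction. Being called was thus common to most genes. Day 0 levels of Plin1, at 4 to 10 reads, and of Cidec, at 8 to 35, limit the precision of their folds. Over the settings run the WT rise of Plin1 ranged from 8.56 to 11.33 and that of Cidec from 9.76 to 11.16.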

Other observations

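Of the 6 other droplet genes that lay under the filter on low values, 3 were called lower in KO-labelled cells at day 2 in the fit with no filter, where 6026 of 30916 genes were. Mgll, the lipase of monoglycerides, was at 0.283 ± 0.0377 FPKM in WT and 0.311 ± 0.119 in KO-labelled cells at day 0, and at 1.13 ± 0.126 and 0.046 ± 0.0442 at day 2 (SD, n = 3 each), with 37 to 52 reads against 0 to 3 at day 2. With no filter, limma gave a day 2 difference of -1.02 in log2(FPKM + 1) (SE 0.07, adjusted p = 4.53e-07) and an interaction of -1.05 (SE 0.1, adjusted p = 9.88e-06). Mettl7b, a droplet membrane protein, was at 1.04 ± 0.208 FPKM in WT and 0.144 ± 0.0728 in KO-labelled cells at day 0 (-0.83, SE 0.08, adjusted p = 3.98e-06), and at 0.241 ± 0.0406 and 0.0373 ± 0.0363 at day 2 (-0.26, SE 0.08, adjusted p = 0.0181). Pnpla3 had 8 to 10 reads in each WT library at day 2 and 0 in all 6 KO-labelled libraries, with a day 2 difference of -0.12 (SE 0.02, adjusted p = 8.69e-05).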
